A study of Mus musculus with 11 samples.

Results

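The 89 cytosolic ribosomal protein genes were examined in renal CD4+ T cells, chosen among the 35814 gene symbols of the table by name alone: symbols of the Rpl and Rps series, with Rpsa, Rplp0, Rplp1 and Rplp2, and without symbols ending in -ps, which mark pseudogenes. Of these, 53 encode the large subunit by name and 36 the small subunit. RNA sequencing had been done on CD4+ T cells sorted from kidneys of young adult male C57BL/6 mice on day 2 after ischemia-reperfusion injury (IRI), with 1 library per mouse. The study deleted kinases of the NFκB pathway in CD4+ T cells, and the libraries analysed here bear on IKK1 and NIK. The groups were CD4cre (n = 3, labelled WT, carrying the Cre recombinase under the CD4 promoter), CD4IKK1 (n = 5, labelled IKK1 knockout, with floxed IKK1 deleted by the same Cre) and CD4NIK (n = 3, labelled NIK knockout, with floxed NIK deleted by that Cre). All 3 groups had IRI and carried the CD4 promoter Cre, which also acts on cells that only pass through a CD4+ stage, and no group without IRI was analysed here.

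A ribosome joins a small subunit, which reads the mRNA, to a large subunit, which forms the peptide bond, and most proteins of both subunits are present once per ribosome. Their mRNAs are short, abundant and nearly all begin with a run of pyrimidines, the terminal oligopyrimidine (TOP) element, through which mTOR signalling adjusts their translation. T cells raise ribosome production strongly when they are activated. The genome holds many processed pseudogenes of these genes, near-identical copies that can share reads with them.

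Promoter windows of 8 members are shown because they belong, among the members with a promoter in the table used, to the genes with the largest called falls and rises between the knockout groups (the comparison of CD4IKK1 with CD4NIK, below). Each window of 30 bases is the RefSeq sequence (GRCm38.p6) around the longest run of C and T found from 50 bases before to 50 bases after the annotated start, written 5′ to 3′ on the gene's strand, with that run in capitals. The first 4 genes fell and the last 4 rose. With the annotated first base as 1 and the base before it as -1, the runs lie at 12 to 18 in Rplp0, 41 to 50 in Rpl10, -13 to -6 in Rpl34, -4 to 13 in Rpl15, -18 to -6 in Rpl31, 35 to 44 in Rps21, 25 to 37 in Rpl35a and -39 to -26 in Rpl22. Of these only the run of Rpl15 spans the annotated start, so the capitals mark the longest run and not a TOP element, which is defined by the transcript's first base.
Rplp0 (chr5:115559466-115559495, plus strand): aggaccgcctggTTCTCCTataaaaggcac
Rpl10 (chrX:74270836-74270865, plus strand): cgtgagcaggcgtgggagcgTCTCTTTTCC
Rpl34 (chr3:130730393-130730422, minus strand): ctgacgcgccgCCTTCCCTgacgtacttcc
Rpl15 (chr14:18270968-18270997, minus strand): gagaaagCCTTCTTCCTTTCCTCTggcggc
Rpl31 (chr1:39367824-39367853, plus strand): ctcgccacaCCTCTTCCTCCTCgcctcccc
Rps21 (chr2:180257399-180257428, plus strand): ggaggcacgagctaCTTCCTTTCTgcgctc
Rpl35a (chr16:33056468-33056497, plus strand): cggggcttgCCTTCCTCTTTCCgccatctt
Rpl22 (chr4:152325679-152325708, plus strand): ccgtctgaCTCCTCCCTTTCCCgacagccg

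A run of 8 or more C or T in that 100-base window was found in 51 of the 64 members with a promoter in the table (79.7%), against 35.7% of all 27025 promoters. The letters CGGAAG or CTTCCG, the core bound by ETS factors on either strand, were found within the 300 bases of 65.6% of the members' promoters and of 17.2% of all promoters. AAGATGG or CCATCTT, on either strand a YY1-type motif, was found in 14.1% and 6.48%. Of the members with a promoter that fell between the knockout groups, 13 of 19 had the pyrimidine run, as had 10 of the 10 that rose and 27 of the 33 that did not pass the test. These matches are descriptions of the letters only.

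The libraries held 15751632 to 25737046 estimated counts each, so that 3 counts, used as the floor, were worth between 0.117 and 0.190 CPM (counts scaled to a common library size). The targeted genes did not separate the knockout groups from the controls as labelled. Chuk, which encodes IKK1, had 258 to 588 counts in the CD4IKK1 libraries and 325 to 683 in the CD4cre libraries. Map3k14, which encodes NIK, had 232 to 626 counts in the CD4NIK libraries, 294 to 506 in CD4cre and 29 to 186 in CD4IKK1. Estimates of whole transcripts do not resolve deleted exons, so the counts of a group's own target check its label little. The Map3k14 counts of CD4IKK1 lay below those of every library of the other groups, and the cause was not tested. Below, "CD4IKK1" and "CD4NIK" mean the libraries so labelled. The 16 pan T cell markers, fixed as a list, summed to 1740 to 3171 CPM in CD4cre, 16.8 to 1457 CPM in CD4IKK1 and 8266 to 11379 CPM in CD4NIK. CD4IKK1 replicate 1 stood apart with the 16.8 CPM, and the main counts are also given without it. The 10 neuronal markers summed to 2693 to 3418, 3451 to 4002 and 799 to 1767 CPM in the same order, although neurons are not a cell type of this sort. No pan T cell marker was at 0 in every library of a group, and at most 3 of the 16 were under 3 counts in any CD4IKK1 library, with 0 in the libraries of the other groups. Macrophage and monocyte markers summed to 579 to 2387, 117 to 326 and 1003 to 1399 CPM. The part that these differences had in the results below was not tested. In bulk samples, fewer cells of a type and less RNA per cell cannot be told apart.

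The ribosomal protein genes together took about 2 in every 100 counts. Their summed share was 2.28%, 1.81% and 1.89% in the 3 CD4cre libraries, with a mean of 1.99% ± 0.251 (SD, n = 3). It was 1.68%, 1.49%, 1.74%, 1.65% and 1.45% in the 5 CD4IKK1 libraries, 1.60% ± 0.125 (SD, n = 5). It was 1.73%, 2.30% and 2.18% in the 3 CD4NIK libraries, 2.07% ± 0.300 (SD, n = 3). Every CD4IKK1 library lay below every CD4cre library, while the highest CD4IKK1 library overlapped with the lowest CD4NIK library. CD4NIK and CD4cre overlapped, and the difference of their means, 0.0748 percentage points, became -0.0171 without CD4cre replicate 2 and -0.0404 without CD4NIK replicate 2. The exact binomial 95% interval of a single library's share was at most 0.0144 percentage points wide, which covers counting error only and is far below the spread between mice. The large subunit took 0.945% ± 0.0708 in CD4IKK1, 1.15% ± 0.141 in CD4cre and 1.21% ± 0.166 in CD4NIK, and the small subunit 0.655% ± 0.0562, 0.841% ± 0.110 and 0.855% ± 0.136, so both subunits had their lowest mean in CD4IKK1. Without CD4IKK1 replicate 1, the difference between CD4IKK1 and CD4cre went from -0.393 to -0.413 percentage points, and without CD4cre replicate 1, the highest control, it was -0.250.

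The counts were also spread differently over the members. The 5 most abundant members on own rows, Rpl4, Rpsa, Rpl13a, Rps3a1 and Rps2, held 26.0% to 27.5% of the members' counts in CD4cre, 18.01% to 25.8% in CD4IKK1 and 29.7% to 33.2% in CD4NIK, and the 3 ranges did not overlap. They were picked from these same libraries. Rpl4, Rpsa, Rps3a1 and Rps2 were called lower between the knockout groups (below), so this separation is not independent of those falls. Without these 5 genes, the share was 1.46% ± 0.168 in CD4cre, 1.24% ± 0.102 in CD4IKK1 and 1.41% ± 0.223 in CD4NIK. The pseudogene copies took a further 0.588% ± 0.0656, 0.442% ± 0.0332 and 0.567% ± 0.108 of all counts in these 3 groups.

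**Figure D1:**
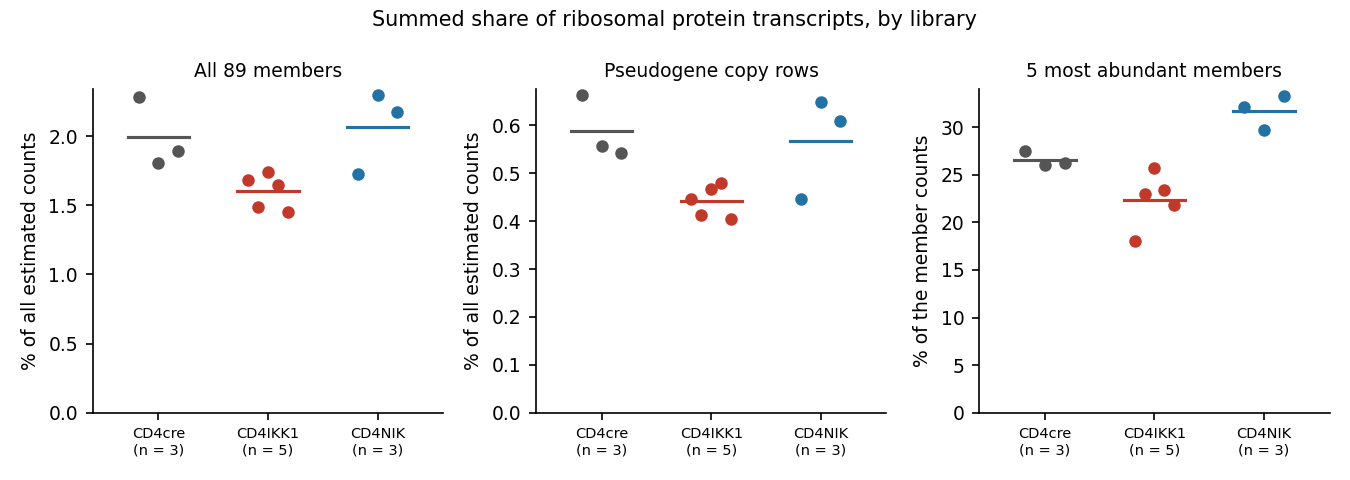
Each point is 1 library and each bar the group mean, for the share of all estimated counts held by the 89 members (left), by their pseudogene copies (middle), and for the percent of the members' counts held by the 5 most abundant members (right). The 5 CD4IKK1 libraries lie at 1.45% to 1.74% in the left panel, below the 3 CD4cre libraries, and the 3 groups separate in the right panel.

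Between the knockout groups, CD4IKK1 against CD4NIK, members moved in both directions. Of 85 members tested, 28 were lower and 11 higher at FDR under 0.05 (edgeR's quasi-likelihood test, Benjamini-Hochberg adjusted over 16546 genes), and 46 did not pass. Over all genes tested, 22% were called lower and 20.2% higher, so the members' count is above that background for falls and below it for rises. Among genes with at least 10 counts in every library, 29.1% were called lower and 29.5% higher. Falls over 2-fold were called for 12 members (18.5% of all genes) and rises over 2-fold for 3 (14.8% of all genes), both below those shares. In 24 members every CD4IKK1 library was below every CD4NIK library (24.4% of all genes), near that share. In 14 every one was above (20.7%). The median log2 fold change was -0.34 for the members and 0.06 for all genes, but its size turned on the scaling. Its sign changed where libraries were scaled to the members' own summed counts, which evens out the set by construction and moves all genes too. Without CD4IKK1 replicate 1, 29 were lower and 11 higher (21.3% and 19.5% of all genes). Without CD4NIK replicate 3 the count dropped to 25, with 18 lower and 7 higher (15.9% and 14.1% of all genes). The small subunit had 14 falls and 3 rises among 35 members tested, the large subunit 14 falls and 8 rises among 50.

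The direction of the smaller changes turned on the scaling. With upper-quartile factors, 17 members were called lower and 17 higher, where 18.2% and 24.9% of all genes were called, and the members' median was -0.10. With library size alone 25 were lower and 17 higher, against 19.9% and 22% of all genes. When libraries were scaled to the members' own summed counts, which compares each gene with the rest of the ribosome, 14 were lower and 31 higher, against 14.1% and 26.3% of all genes, and the medians moved to 0.14 for the members and 0.52 for all genes. Of the 39 calls, 25 were also made on that scale. The 14 that fell on that scale included Rpl8, Rpl3, Rplp0, Rpl10, Rpl34, Rpl15, Rpl4, Rpl7, Rpl13, Rpl32, Rps3a1 and Rps2. All 11 rises were also among the 25.

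The stalk of the large subunit, which recruits the translation factors, is built on Rplp0, to which dimers of Rplp1 and Rplp2 bind. Rplp0 stood at 490.1, 229 and 229 CPM in CD4cre, at 78.3, 88.2, 97.9, 159 and 144 CPM in CD4IKK1, and at 584, 595 and 701 CPM in CD4NIK. The 3 groups did not overlap, with CD4IKK1 lowest and CD4NIK highest. Rplp0 fell by 2.47 on the log2 scale between CD4IKK1 and CD4NIK (SE 0.29, 5.53-fold, FDR 0.0001). Against CD4cre, its log2 fold changes of -1.48 ± 0.32 (SE) in CD4IKK1 and 0.98 ± 0.31 in CD4NIK did not pass (FDR 0.094 and 0.054).

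Rplp1 ranged from 301 to 386 CPM in CD4cre, from 289.9 to 467 in CD4IKK1 and from 257 to 348 in CD4NIK. Rplp2 ranged from 189 to 217, from 196 to 314 and from 138 to 207 CPM in the same order. Both overlapped between all groups, and their log2 fold changes between the knockout groups, 0.21 ± 0.17 (FDR 0.34) and 0.43 ± 0.18 (FDR 0.068), lay on the other side of 0 from Rplp0. On the scale of the members' summed counts both passed, at 0.68 (FDR 0.0053) and 0.91 (FDR 0.0017). Counted within each library, which no scaling affects, there were 67.3 to 127 Rplp0 counts per 100 Rplp1 counts in CD4cre, 16.8 to 49.5 in CD4IKK1 and 171 to 228 in CD4NIK. The ratio of Rplp1 to Rplp2 had a narrower range, with 159 to 178, 148 to 158 and 168 to 185 Rplp1 counts per 100 Rplp2 counts.

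**Figure D2:**
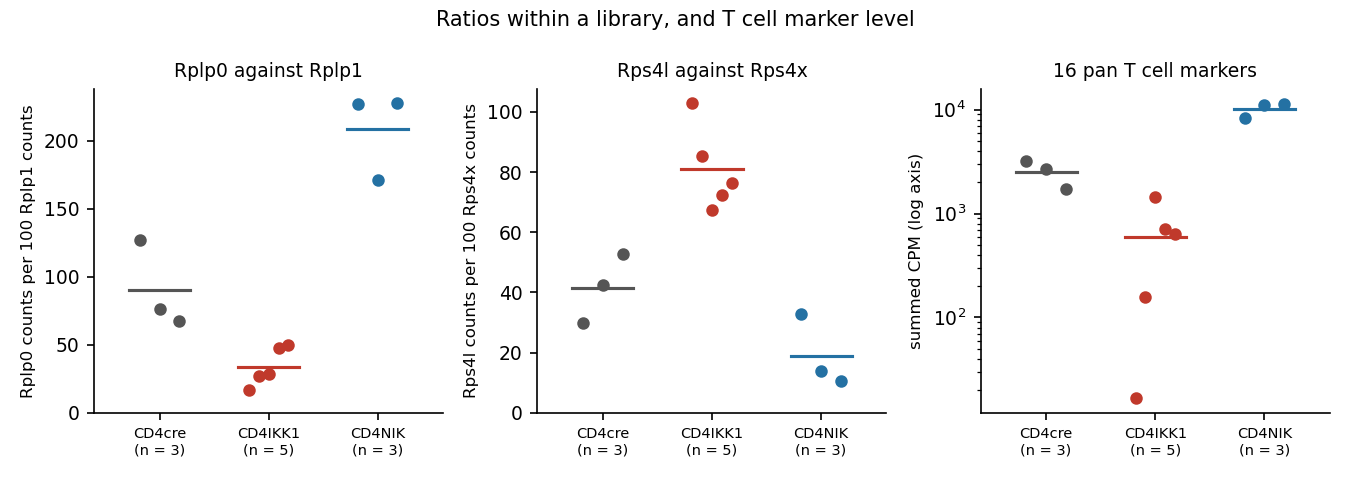
Each point is 1 library and each bar the group mean, for Rplp0 counts per 100 Rplp1 counts (left), Rps4l counts per 100 Rps4x counts (middle) and the summed CPM of 16 pan T cell markers (right, log axis). In the left panel CD4IKK1 lies at 16.8 to 49.5 and CD4NIK at 171 to 228 with CD4cre between them, the order of the right panel, while the middle panel has the reverse order.

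Of the large subunit's core proteins, Rpl4, which wraps the peptide exit tunnel, had the highest mean CPM over all 11 libraries on own rows. Rpl13a had the highest mean in CD4IKK1 and Rpsa in CD4cre. These ranks leave out copies: Rpl13 had 79914 counts on its own row and 262323 on copies, against 247697 on the row of Rpl4. Rpl4 had 1465, 912 and 998 CPM in CD4cre, 663 to 804 CPM in the 5 CD4IKK1 libraries (median 737), and 1785, 1635 and 2581 CPM in CD4NIK, with no overlap between the 3 groups. Its log2 fold change was -1.46 ± 0.18 between the knockout groups (2.75-fold, FDR 0.00011). Rpl7 fell likewise by 1.24 on the log2 scale (SE 0.17, FDR 0.00019), from 559 to 875 CPM in CD4NIK to 259 to 326 CPM in CD4IKK1. Rpl13 and Rpl32 fell by 1.08 ± 0.17 and 1.02 ± 0.21 (FDR 0.00046 and 0.0019). Rpl34 fell by 1.60 ± 0.29 (FDR 0.00099), and Rpl13a, at 662 to 1129 CPM in CD4IKK1 and 924 to 1356 CPM in CD4NIK, did not pass (-0.39 ± 0.18, FDR 0.091).

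Rpl3, which lies near the peptidyl transferase centre, had a larger fold change on fewer reads. It had 53.4, 24.8 and 16.9 CPM in CD4cre, 2.99 to 21.4 CPM in CD4IKK1 (median 6.45) and 49.0, 101 and 63.4 CPM in CD4NIK, and fell by 2.99 on the log2 scale (SE 0.58, FDR 0.0017). Rpl8, another protein of the catalytic region, had 0.259 to 4.53 CPM in CD4IKK1 and 9.66 to 18.5 CPM in CD4NIK and fell by 3.28 (SE 0.77, FDR 0.0046). The levels of Rpl3 and Rpl8 are far below those of partners present once per ribosome: Rpl3 had 26.5 CPM per kb of coding sequence over all libraries and Rpl8 8.00, against 941 for Rpl4. Copy rows held 7.23% of the reads of Rpl3 and none of Rpl8, and whether their rows hold all their reads was not tested.

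The 5S rRNA partners Rpl5 and Rpl11, which also bind Mdm2 when ribosome assembly is disturbed, had much of their signal on pseudogene rows. Rpl5 had 1.27 to 11.2 CPM in all libraries, and its own row held 1358 counts over the 11 libraries against 124624 on the pseudogene Gm15500. On its own row its log2 fold change between the knockout groups was -0.63 ± 0.53 (FDR 0.37), and with copies added -0.58 (FDR 0.021). Rpl11 had 85.4 to 119 CPM in CD4IKK1 and 56.5 to 82.2 CPM in CD4NIK and rose by 0.56 ± 0.16 on its own row (FDR 0.015), but with the copies, mainly Gm10288, the value was -0.01 (FDR 0.96), and without CD4NIK replicate 3 the FDR of its own row was 0.081. Rpl10, added late in large subunit maturation, fell by 2.22 ± 0.53 on its own row (FDR 0.0049) and by 0.72 with copies (FDR 0.0066), of which Rpl10-ps1 held 55031 counts and Rpl10 itself 3563.

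Copy rows, defined as pseudogenes that match a member over at least 200 bases at 90% identity or more or carry its name with -ps, numbered 1134 for 80 members. For 14 members the copies held more counts than the member's own row, among them Rpl5 (98.9%), Rpl10 (94.0%), Rpl12 (90.5%), Rpl10a (87.5%), Rpl15 (86.1%), Rpl13 (76.7%) and Rps6 (63.0%). With the copies' counts added to their member, 40 members were called between the knockout groups, 30 lower and 10 higher (22.2% and 20.3% of all genes), and 35 of the 39 calls on own rows remained. The log2 fold change moved by more than 0.5 in 6 of 85 members. Rps12l1, a pseudogene by annotation despite its symbol, went from -2.36 to 0.44, Rpl10a from -0.48 to 0.44 and Rpl15 from -1.47 to -0.72. Each copy row was counted with the member it matched best, whatever its name. Of the 15824 copy counts of Rps12l1, 15708 were on Rps12-ps3, named after Rps12, which itself received 28 copy counts. The rise of Rps12 was therefore not checked with Rps12-ps3 added. Rplp0, Rpl4, Rpl7, Rpsa, Rps3a1, Rps4l, Rpl22 and Rpl41 were called in the same direction with copies added, Rplp0 at -2.45, Rpl4 at -1.46 and Rps4l at 1.51.

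**Figure D3:**
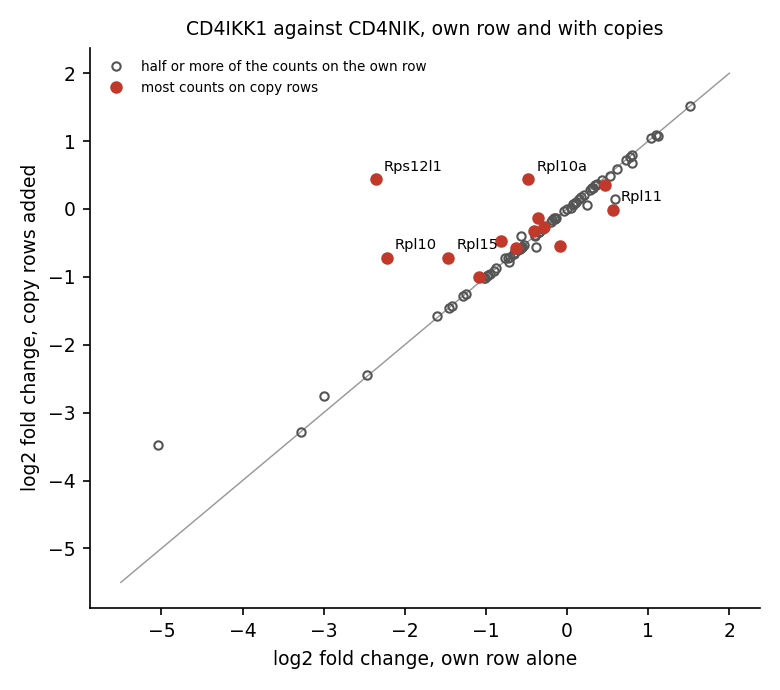
Each point is 1 member in CD4IKK1 against CD4NIK, with the log2 fold change of its own row on the x axis and that with the counts of its pseudogene copies added on the y axis; filled points are members with most counts on copy rows, and the line marks equal values. Most members lie on the line, while the 5 named ones, Rps12l1, Rpl10, Rpl15, Rpl10a and Rpl11, moved by more than 0.5 (Rpl3l, outside the axes, is left out).

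In the small subunit, Rpsa, also known as the laminin receptor, had 1429, 1058 and 1143 CPM in CD4cre, 534, 643, 1104, 781 and 528 CPM in CD4IKK1 and 1201, 1635 and 1496 CPM in CD4NIK. The libraries of CD4IKK1 lay below those of CD4NIK, and 1 of them, replicate 3 with 1104 CPM, reached into the CD4cre range. Rpsa fell by 1.01 ± 0.22 on the log2 scale between the knockout groups (2.01-fold, FDR 0.0032), and on the scale of the members' summed counts the value was -0.54 (FDR 0.057). Rps3a1, which lies at the mRNA exit, fell by 0.99 ± 0.15 (FDR 0.00037), Rps2 by 0.95 ± 0.18 (FDR 0.0012) and Rps19, the gene most often mutated in Diamond-Blackfan anaemia, by 0.72 ± 0.20 (FDR 0.012). The call of Rps19 was lost on the scale of the members' summed counts, at -0.23 (FDR 0.28), and without CD4NIK replicate 2 (FDR 0.054) or 3 (FDR 0.062).

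Rps6, the substrate of S6 kinase, and Rps14 did not pass, with -0.09 ± 0.11 (FDR 0.55) and -0.15 ± 0.20 (FDR 0.59). For Rps6, the value with copies was -0.55 (FDR 0.0057), most counts being on Rps6-ps4. Rps3, which besides its place at the mRNA entry is known as a partner of NFκB on DNA, had 42 to 155 counts in CD4IKK1, 138 to 326 in CD4NIK and 64 to 361 in CD4cre, and its -1.42 ± 0.57 did not pass (FDR 0.061). Rps3 stood at 10.1 CPM per coding kb over all libraries.

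The 11 members that rose between the knockout groups were Rps4l, Rpl22, Rpl35a, Rps21, Rpl31, Rps12, Rpl41, Rpl22l1, Rpl27a, Rpl11 and Rpl36a. For Rpl27a as for Rpl11 the call was lost with copies added, from 0.60 ± 0.12 (FDR 0.0018) to 0.15 ± 0.11 (FDR 0.30). Rpl22, which binds RNA and is needed for development of αβ T cells, had 39.7, 41.1 and 47.8 CPM in CD4cre, 62.8, 75.4, 50.8, 58.2 and 55.4 CPM in CD4IKK1 and 32.4, 23.5 and 29.0 CPM in CD4NIK. The 3 groups did not overlap, and CD4IKK1 was highest. Rpl22 rose by 1.10 ± 0.19 on the log2 scale (2.14-fold, FDR 0.00069). Rpl35a rose by 1.03 ± 0.29 (FDR 0.014), Rps21 by 0.80 ± 0.18 (FDR 0.0036), Rpl31 by 0.80 ± 0.17 (FDR 0.0029) and Rps12 by 0.77 ± 0.18 (FDR 0.0050). Without CD4NIK replicate 3, the FDR of Rpl35a was 0.069. Rpl41, the member with the shortest coding length (138 nucleotides), had 518 to 871 CPM in CD4IKK1 and 300.1 to 454 CPM in CD4NIK and rose by 0.72 ± 0.19 (FDR 0.0077). On own rows, Rpl41 also had the most CPM per coding kb with 3772, followed by Rpl13a with 1662. The counts are of whole transcripts, so a short coding part raises this value, and copies are not in it. Rpl38, a low row with 3.00 to 5.46 CPM in CD4IKK1 and 0.884 to 2.83 in CD4NIK, did not pass at 1.12 ± 0.51 (FDR 0.099). On the scale of the members' summed counts it was 1.68 (FDR 0.024).

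**Figure D4:**
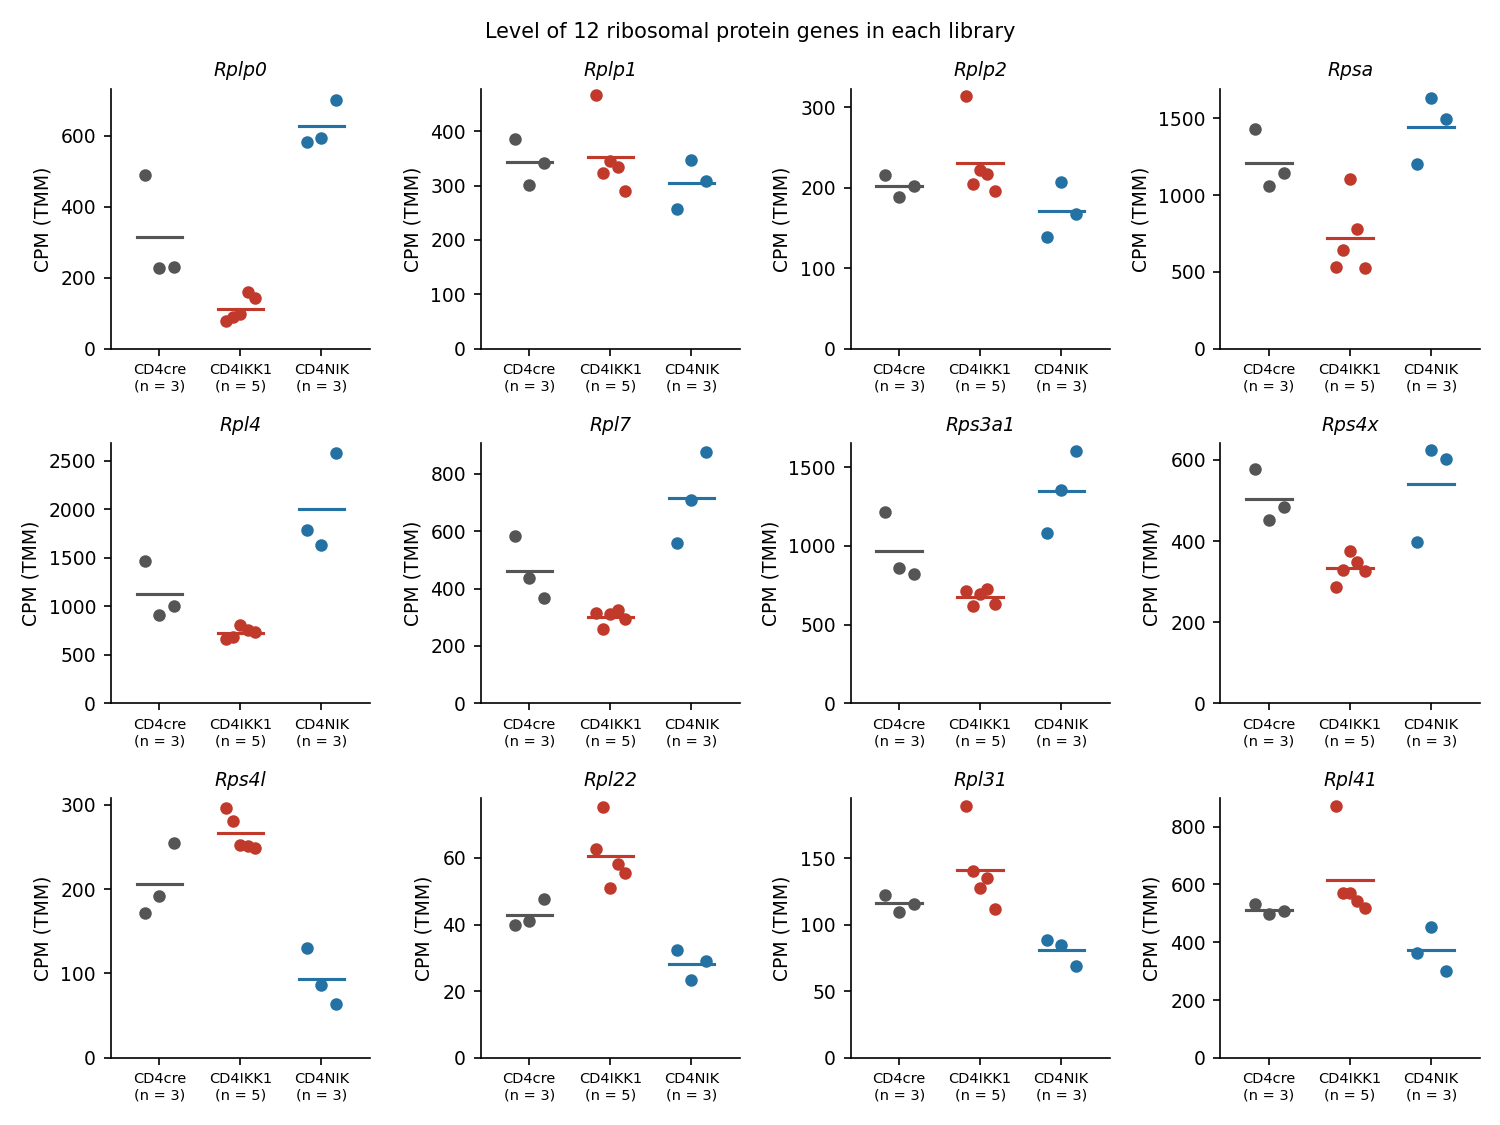
Each panel shows 1 gene, each point 1 library (CPM with TMM scaling, axis from 0) and each bar the group mean. On the TMM scale, Rplp0, Rpl4, Rpl7 and Rps3a1 have the lowest mean in CD4IKK1 and the highest in CD4NIK, Rps4l, Rpl22, Rpl31 and Rpl41 the reverse order, and Rplp1 and Rplp2 overlap between groups.

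Pairs of related genes were compared with each other. Rps4l, an autosomal relative of the X-linked Rps4x, had 172, 192 and 255 CPM in CD4cre, 249.2 to 296 CPM in CD4IKK1 (median 253) and 129.9, 86.3 and 63.3 CPM in CD4NIK, and rose by 1.51 ± 0.22 on the log2 scale (2.85-fold, FDR 0.00026). Rps4x fell by 0.70 ± 0.16 (FDR 0.0033), from 397 to 624 CPM in CD4NIK to 288 to 375 CPM in CD4IKK1, but on the scale of the members' summed counts the value was -0.20 and did not pass (FDR 0.36). Within a library there were 67.4 to 103 Rps4l counts per 100 Rps4x counts in CD4IKK1, 29.8 to 52.7 in CD4cre and 10.5 to 32.7 in CD4NIK, and CD4IKK1 did not overlap with either group. Related genes can share reads, and how reads were divided between the pair was not tested.

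Rpl22l1, the relative that stands in for Rpl22, gave 0.61 ± 0.21 (FDR 0.032), a call made in 17 of 23 alternatives and lost without CD4NIK replicate 1 (FDR 0.078) or 3 (FDR 0.12) and with DESeq2 (adjusted p 0.13). CD4IKK1 replicate 1 was highest with 224 CPM, the next library having 142 CPM. Per 100 Rpl22l1 counts there were 27.99 to 63.2 Rpl22 counts in CD4IKK1, 30.2 to 40.6 in CD4cre and 21.2 to 35.5 in CD4NIK, overlapping throughout. Rps27 fell by 0.87 ± 0.27 (FDR 0.022), but the FDR was 0.11 without CD4NIK replicate 2 and 0.083 without CD4NIK replicate 3, and on the scale of the members' summed counts the value was -0.35 (FDR 0.25). Its relative Rps27l, known as a p53 target, gave -0.56 ± 0.50 (FDR 0.40) at 2.11 to 6.89 CPM. Rpl7l1, which works in ribosome assembly, gave -0.20 ± 0.15 (FDR 0.30) where Rpl7 fell. Rpl36a rose by 0.52 ± 0.17 (FDR 0.023), with an FDR of 0.061 without CD4NIK replicate 1 and 0.078 without CD4NIK replicate 3, and Rpl36al, outside the symbol rule, gave 0.31 ± 0.16 (FDR 0.16). Rpl39 gave 0.28 ± 0.23 (FDR 0.34), and 0.76 (FDR 0.015) on the scale of the members' summed counts.

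The tissue-restricted relatives were near the floor. Rpl10l, a testis gene, had 1 count in 1 library. Rpl39l had 0 to 22 counts and Rpl3l, a muscle gene, 0 to 41, with 0 in every CD4NIK library. Rpl10l, Rpl32l, Rpl6l and Rps3a3 were too low to be tested in any comparison, Rps3a2 in CD4IKK1 against CD4cre and Rpl3l in CD4NIK against CD4cre. Rpl32l, Rpl6l, Rps3a2, Rps3a3 and Rps12l1 are pseudogenes in the annotation used.

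Shorter and longer members differed in the direction of their change. Between the knockout groups, the 10 members with up to 300 coding nucleotides had a median log2 fold change of 0.22, the 28 over 300 to 450 of 0.13, the 19 over 450 to 600 of -0.39, the 22 tested over 600 to 900 of -0.71 and the 4 over 900 to 1500, of -1.96. Those 4 were Rpl3, Rplp0, Rpl4 and the near-absent Rpl3l. Among all other genes the medians of the same classes were 0.57, 0.27, 0.25, 0.01 and -0.17. Of the 22 members over 600 to 900 nucleotides, 11 (50%) were lower and 1 (4.55%), Rps4l, higher, where 24.7% and 21.7% of the other genes of that length were. Of the 38 members up to 450 nucleotides, 9 (23.7%) were higher and 6 (15.8%) lower, both below the 34.2% and 20.1% of the other genes of that length. Across the 82 tested members with a coding length other than Rpl3l, Spearman's rho between coding length and log2 fold change was -0.51, and across 14839 other genes, many of them longer, 0.05. The points share libraries and depth, and the correlation is a description.

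The same measure was -0.44 over the 82 members in CD4IKK1 against CD4cre and 0.52 in CD4NIK against CD4cre. In CD4NIK against CD4cre, the class medians went from -0.19 in the shortest class to 0.24 over 600 to 900 nucleotides and 0.98 in the longest. The 3 comparisons share libraries, so these values are not independent of each other.

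**Figure D5:**
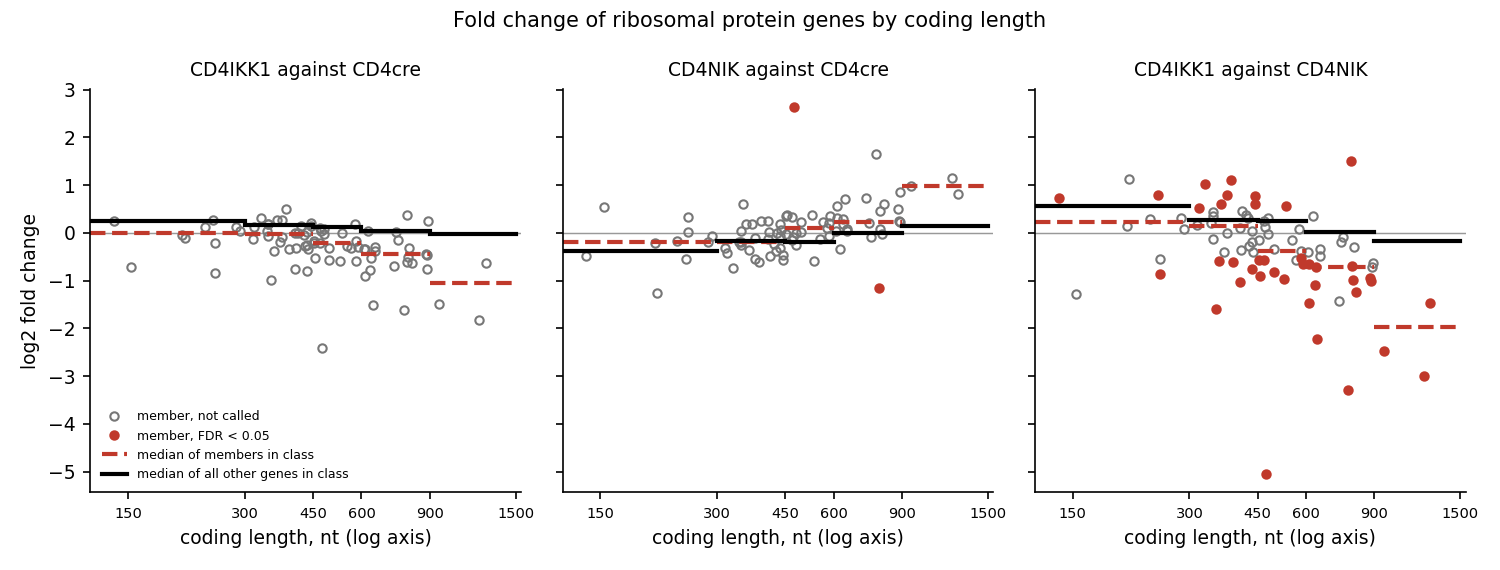
Each point is 1 tested member, with its coding length in nucleotides on a log x axis and its log2 fold change on the y axis, in the 3 comparisons; filled points passed at FDR under 0.05, dashed bars are the medians of the members in each length class and solid bars those of all other genes. In CD4IKK1 against CD4NIK (right) the members' medians go from 0.22 to -1.96 with length (Rpl3l, outside the axes, counts in the last median only).

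In CD4IKK1 against CD4cre, no member passed edgeR's test. Of 84 members tested, 0 were called at FDR under 0.05, as were 0 of all 15653 genes (0%). At an unadjusted p under 0.05, 25 members were lower and 2 higher, against 8.91% and 7.65% of all genes. In 18 members every CD4IKK1 library was below every CD4cre library (8.44% of all genes), and in 1, Rpl22, every one was above (6.02%). DESeq2, on the same libraries, called 16 of 82 members lower and 0 higher (5.36% and 2.49% of all genes). These included Rpl3, Rplp0, Rpl34, Rpl15, Rpl4, Rpl7, Rpl13, Rpl32, Rpsa, Rps3a1, Rps18, Rps27, Rps15, Rps4x and Rps9. The median log2 fold change was -0.21 for the members and 0.02 for all genes, and 57 of the 84 were negative. The members' median was -0.08 without CD4cre replicate 1 and 0.085 on the scale of the members' summed counts, where that of all genes was 0.30.

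Among the most negative values were those of Rpl3 (-1.83 ± 0.59), Rpl8 (-1.62 ± 0.90), Rpl10 (-1.50 ± 0.56) and Rplp0, all but the last on low rows. With copies added, which hold 94.0% of its counts, the value of Rpl10 was -0.25 ± 0.12 (FDR 0.32). The smallest adjusted p-values among the members, FDR 0.055, belonged to Rpl13 at -0.78 ± 0.11 and Rpl15 at -0.90 ± 0.15. With copies added they were -0.80 ± 0.12 (FDR 0.057) and -0.45 ± 0.12 (FDR 0.14). Rpl13 had 374 to 511 CPM in CD4cre and 232 to 267 CPM in CD4IKK1. The most positive values were those of Rps12l1 (0.73 ± 1.49), Rpl22 (0.50 ± 0.17), Rps4l (0.37 ± 0.13), Rpl35a (0.31 ± 0.25) and Rpl31 (0.28 ± 0.16). With copies added, mainly Rps12-ps3, Rps12l1 gave 0.25 ± 0.17 (FDR 0.52).

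In CD4NIK against CD4cre, 1 member was higher and 1 lower of 84 tested, where 12.1% of all 15209 genes were called higher and 8.97% lower. Rps4l fell by 1.16 ± 0.30 (2.23-fold, FDR 0.030), and its FDR was 0.071 without CD4cre replicate 2, 0.099 without CD4cre replicate 3, 0.10 without CD4NIK replicate 2 and 0.089 without CD4NIK replicate 3. The count of 2 called members became 6 without CD4cre replicate 1, 12 without CD4NIK replicate 1, and 1 without CD4cre replicate 2, CD4NIK replicate 2 or CD4NIK replicate 3. The share of all genes called higher ran from 3.89% to 12.5% and lower from 0.39% to 13.9% over these fits. In 5 members every CD4NIK library was above every CD4cre library (22.9% of all genes) and in 15 every one was below (22.4%). The medians were 0.03 for the members and -0.02 for all genes. Among the most positive values were those of Rps12l1 (3.06 ± 0.99, FDR 0.059), Rpl8 (1.65 ± 0.53, FDR 0.057), Rpl3 (1.15 ± 0.44, FDR 0.093) and Rplp0. With copies added, which hold 86.6% of its counts and are mainly Rps12-ps3, the value of Rps12l1 was -0.20 ± 0.20 (FDR 0.49). Beside Rps4l, the most negative were those of Rpl38 (-1.26 ± 0.60, FDR 0.17), Rpl35a (-0.74 ± 0.31, FDR 0.12), Rpl22 (-0.61 ± 0.24, FDR 0.10) and Rpl11 (-0.58 ± 0.21, FDR 0.076), the last of which gave -0.15 with copies added (FDR 0.56).

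Genes that work with the ribosomal proteins were taken from fixed lists, whose counts stand beside the 22% of all genes called lower and 20.2% called higher between the knockout groups. Of the 4 cytosolic ribosome components outside the symbol rule, Rack1, the signalling scaffold on the small subunit, fell by 1.28 ± 0.25 between the knockout groups (FDR 0.0014). Fau, which encodes a ribosomal protein fused to a ubiquitin-like sequence, gave 0.16 ± 0.17 (FDR 0.50). Of 18 elongation factor and other TOP mRNAs, 11 were lower and 1 higher (median -0.71), and the 1 that rose was Nap1l1 at 0.47 ± 0.15 (FDR 0.023). The most negative values were on low rows with libraries at 0, and whether these rows hold all reads of their genes was not tested. Eef2, the translocation factor, had 0 to 0.767 CPM in CD4IKK1 and 0.718 to 5.81 CPM in CD4NIK (FDR 0.042), and Npm1, a nucleolar chaperone, 0 to 3.83 and 8.41 to 17.1 CPM (FDR 0.040).

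Of 26 translation initiation factors tested, 10 were lower and 4 higher (median -0.38), with Eif1 at -2.69 ± 0.38 (FDR 0.00025) and Eif2b5 at 1.34 ± 0.30 (FDR 0.0035) at the ends. Of 41 assembly and nucleolar factors, 26 were lower and 3 higher (median -0.98). Bop1, which acts in processing of ribosomal RNA, had 0 to 0.348 CPM in CD4IKK1, with a median of 0, and 2.56 to 3.11 CPM in CD4NIK (FDR 0.015). Wdr43, another processing factor, fell by 3.44 ± 0.72 (FDR 0.0023), and Nhp2, of the pseudouridylation complex, rose by 0.93 ± 0.15 (FDR 0.00055). Of 14 genes of RNA polymerase I and its factors, 5 were lower and 0 higher (median -0.48), with Polr1e at -2.50 ± 0.64 (FDR 0.0074) and Ttf1 at -1.83 ± 0.27 (FDR 0.00028). Of 25 mTOR pathway genes and TOP regulators, 10 were lower and 2 higher (median -0.34). The row of the kinase Akt1 was near 0 in CD4IKK1, with 0 to 0.113 CPM and a median of 0, and low in CD4NIK, with 1.08 to 1.88 CPM (FDR 0.011). Whether the rows of Bop1 and Akt1 hold all reads of these genes was not tested. The translation repressor Eif4ebp2 had 0 to 1.20 and 10.5 to 12.8 CPM (FDR 0.017), while Rheb, the activator of mTOR, rose by 0.90 ± 0.13 (FDR 0.00027).

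In CD4NIK against CD4cre, where 12.1% of all genes were called higher and 8.97% lower, 11 of 41 assembly factors were higher and 0 lower, as were 5 of 25 mTOR pathway genes, with Myc, the activator of ribosome production, at 1.81 ± 0.37 (FDR 0.017). In the same comparison 2 of the 18 elongation factor and TOP mRNAs were higher, 5 of 26 initiation factors higher and 1 lower, and 2 of 14 polymerase I genes higher, so that the elongation factor and polymerase I counts are near that background. In CD4IKK1 against CD4cre, where 0 of all genes were called, the medians were -0.32 for the elongation factor and TOP mRNAs, with 7 of 18 lower and 1 higher at an unadjusted p under 0.05, and -0.23 for the assembly factors, with 6 of 40 lower and 1 higher (8.91% of all genes lower and 7.65% higher), and Myc gave -2.16 ± 0.43 (FDR 0.088).

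Other short, abundant transcripts were followed in the nuclear-encoded respiratory chain genes. Of 48 such subunits tested, 44 were higher and 0 lower between the knockout groups (median 0.97), and Ndufa5 and Ndufa4 rose by 1.24 ± 0.20 and 1.24 ± 0.21 (FDR 0.00049 and 0.00055). Of 76 mitochondrial ribosomal proteins, 37 were higher and 5 lower (median 0.38), and their summed share of counts was 1.03% ± 0.0701 in CD4IKK1, 0.909% ± 0.0380 in CD4cre and 0.659% ± 0.0772 in CD4NIK. These 3 groups did not overlap, with CD4IKK1 highest, whereas CD4IKK1 had the lowest mean cytosolic share and CD4NIK and CD4cre overlapped there. In CD4NIK against CD4cre, 22 of the 48 respiratory chain subunits were lower and 0 higher. Marker lists moved in the same comparisons. Between the knockout groups 15 of 16 pan T cell markers were lower and 8 of 10 neuronal markers higher, and in CD4NIK against CD4cre 15 of 16 pan T cell markers were higher and 6 of 10 neuronal markers lower. Between the knockout groups, 7 of 11 macrophage and monocyte, 2 of 4 B cell, 3 of 8 kidney tubule, 4 of 5 erythroid and 1 of 4 endothelial markers were lower and 4 of 8 oligodendrocyte and astrocyte markers higher, each with no call the other way. In CD4IKK1 against CD4cre, where 0 of all 15653 genes were called, all 16 pan T cell markers had negative values (median -2.04), 1 of them at an unadjusted p under 0.05. Of 11 macrophage and monocyte markers 9 were lower at that p (median -2.61), and of 10 neuronal markers 4 were higher (median 0.24). Of 5 erythroid markers 4 were lower (median -1.19), and of 7 kidney tubule markers 3 (median -2.71), with 0 higher in either list. Of the 48 respiratory chain subunits 30 were higher and 0 lower (median 0.38). Over all genes, 8.91% were lower and 7.65% higher at that p.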

How the data were processed

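RNA sequencing of sorted renal CD4+ T cells, amplified with the SMARTer chemistry, was available for 11 mice. The authors trimmed reads, quantified transcripts with kallisto and deposited estimated counts, 1 per gene symbol and library. The methods name GRCm39 and the submitters' processing notes mm10, and the transcript annotation and kallisto version were not given in the sources used here. Estimates divide shared reads between near-identical genes. Estimated counts were rounded and tested with edgeR 4.0.16 (R 4.3.3): filterByExpr, TMM factors and the robust quasi-likelihood F test, with Benjamini-Hochberg adjustment over all genes tested (FDR threshold 0.05). CD4IKK1 and CD4NIK were each fitted with CD4cre, and compared with each other in a fit of all 11 libraries, so the 3 comparisons share libraries. CPM values use TMM factors, and fold changes are log2. DESeq2 1.42.0, other scalings, filters, the replicate block, leave-one-out fits and pseudogene copies were tried. Scripts were tested on simulated data.

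The members and gene lists were chosen with earlier results of these data known. Genes named were the 5 most positive and 5 most negative members per comparison, the 5 most abundant, members called over 2-fold, the stalk genes, Rpsa, Rps6, Rps3, Rps19, Rps14, Rpl5, Rpl11, Rpl10 and Rpl41, and paralog pairs; others named as called members or for copies were chosen after their values were seen. Coding lengths are from GENCODE vM39, which held all 89 members. The files hold 1 library per mouse, so p-values measure the spread between mice. Replicate numbers did not pair the samples. Single values of a few genes that meet the naming rule are not reported here.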

Additional observations from a re-analysis of the deposited data

Results flagged for a closer look

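Among the 54 screened values in the 5 CD4IKK1 libraries, 8 members had 1 library apart from the other 4 (the gap to the nearest library over the group's range, against the 95% limit of Dixon's test); chance flags about 1 in 20 such groups. Replicate 1 was the highest library for 6 of them: Rpl22l1 had 224.4 CPM there (next 142.3), Rpl23a 315.2 (next 232.2), Rpl35a 90.93 (next 49.59), Rpl41 871 (next 571.1), Rplp2 314.2 (next 222.2) and Rps21 114.3 (next 81.27). In the same library the pan T cell markers summed to 16.8 CPM and the nuclear-encoded respiratory chain genes to 27360 CPM, and how these relate to the 6 genes was not tested. Replicate 4 was the lowest for Rpl27a at 136.1 CPM (next 149) and the highest for Rpl8 at 4.526 CPM (next 1.467).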

How the results depend on the processing

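In CD4IKK1 against CD4cre, 0 members were called, against 1 with all 11 libraries in the fit (0% of all genes higher and 0.798% lower), 3 with a filter of 1 count in any library (0% and 0.253%), 8 with 10 counts in every library (0.192% and 1.88%) and 16 with DESeq2 (2.49% and 5.36%), and 0 whichever library was left out (at most 0.00649% and 0.163%). In CD4NIK against CD4cre, 2 were called, against 5 (7.1% of all genes higher and 11.5% lower), 5 (7.86% and 7.28%), 6 (17.6% and 14.9%) and 10 (15.5% and 13.4%) under the same settings, 5 with library size alone (10.5% and 12.2%), 4 with RLE factors (12.9% and 10.4%), 1 scaled to the members (5.95% and 1.39%) and 9 with upper-quartile factors (10.8% and 15.1%). Leaving out 1 library gave 1 to 12 (3.89% to 12.5% and 0.39% to 13.9%). In CD4IKK1 against CD4NIK, the 39 calls became 25 to 46 with 1 library left out (14.1% to 19.6% of all genes higher and 15.9% to 22% lower). Scaled to the members' summed counts, the median log2 fold change was 0.085 in CD4IKK1 against CD4cre and 0.14 in CD4IKK1 against CD4NIK, where upper-quartile factors gave -0.10. Leaving out 1 library gave medians of -0.28 to -0.08, -0.05 to 0.17 and -0.48 to -0.23 in the 3 comparisons, and differences in summed share of -0.485 to -0.250, -0.0404 to 0.245 and -0.638 to -0.353 percentage points. Without the 5 most abundant members, the share differed by -0.173 points between the knockout groups, against -0.468 with them. Rpl11 in CD4IKK1 against CD4NIK went to -0.0099 with copies added, an alternative chosen after seeing the data, as were the counts of calls scaled to the members. The causes were not tested. The replicate numbers did not pair the samples (correlations of same-numbered deviations from -0.089 to 0.077), and the fit with a replicate block called 0, 2 and 29 members, with 0%, 6.55% and 16.3% of all genes higher and 0.0192%, 1.26% and 18.5% lower, so that the 29 of 85 members lie near the share of all genes. Rpl10l, Rpl32l, Rpl6l and Rps3a3 were under the filter on low counts in every comparison.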
